A study of Mus musculus with 12 samples.

Results

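The combined action of IL-1b and IL-22 on mouse colonic epithelium was examined as the departure of the combined response from additivity, gene by gene. Polyadenylated RNA had been sequenced from colonoids of C57BL/6 mice in 4 groups of 3 libraries: unstimulated, recombinant mouse IL-22 at 1 ng/mL, recombinant mouse IL-1b at 100 ng/mL, and both cytokines, with 12 h of stimulation. Colonoids are epithelial structures grown in Matrigel from crypts isolated from the colon, here in medium with EGF and L-WRN conditioned medium, which all groups shared. Whether the 3 libraries of a group derive from different animals or wells is not stated, so the spread behind every p-value may be technical. The departure, called the interaction below, was the log2 level with both cytokines, minus that with IL-22, minus that with IL-1b, plus that of unstimulated cultures. It was computed from all 12 of the 12 libraries in the series and for 13987 of the 35869 gene symbols, those that passed a filter on low counts. An interaction of 0 means that the 2 fold changes multiplied, a value below 0 that the combination reached less than their product, and a value above 0 that it reached more.

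IL-22 is made by lymphoid cells and acts on epithelial cells through the IL22RA1 and IL10RB receptor chains, JAK kinases and the transcription factor STAT3. IL-1b binds the IL-1 receptor, whose adaptors MYD88 and IRAK kinases lead to NF-kB and MAP kinases. In the intestinal epithelium both cytokines are known for antimicrobial and acute-phase genes, some of which carry binding sites for both factors. The study concerns the roles of epithelial IL-1 receptor signalling in homeostasis and inflammation.

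Library totals lay between 4703902 and 5804033 counts, so that 3 counts in 1 library stood for 0.499 to 0.665 CPM (scaled to library totals with TMM factors). All 10 defining epithelial markers were detected, with a summed level of 2547 to 3172 CPM over the 12 libraries, against 45.1 to 119.6 CPM for 18 fibroblast and smooth muscle markers and 4.04 to 13.8 CPM for 11 endothelial markers. The 25 immune markers summed to 191.7 to 325.1 CPM, most of it Cd14 and Ly6g, and 3 of them had no count in any library. In bulk RNA a change in the number of cells of a type cannot be told apart from a change in RNA per cell.

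No gene was called in the interaction. The edgeR quasi-likelihood test gave 0 of 13987 genes at a Benjamini-Hochberg adjusted p under 0.05 (0% called), limma-voom also gave 0, and DESeq2 gave 1, the lipopolysaccharide-binding protein gene Lbp. At an unadjusted p under 0.05 edgeR gave 705 genes, 301 above 0 and 404 below, which is 5.04% of the genes tested, close to the share that this threshold would admit if no gene departed. That share was not stable. When 1 library was left out it lay between 3.76% (without unstimulated replicate 1) and 7.82% (without unstimulated replicate 3). It was 4.89% with limma-voom and 2.01% of 24365 genes with DESeq2. The lowest adjusted p from edgeR with all libraries and the filter was 0.124, for Lbp. A fit without the low-count filter called 50 genes, 25 in each direction, of which 46 had been tested in the filtered set. In that fit the prior degrees of freedom that steady the spread of each gene were 55, against 6.08 with the filter, and their part in the count was not tested. For comparison, IL-22 alone against unstimulated called 3144 genes (22.5%) and IL-22 added to IL-1b called 3682 (26.3%), and the first count was 1992 without unstimulated replicate 2.

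**Figure D1:**
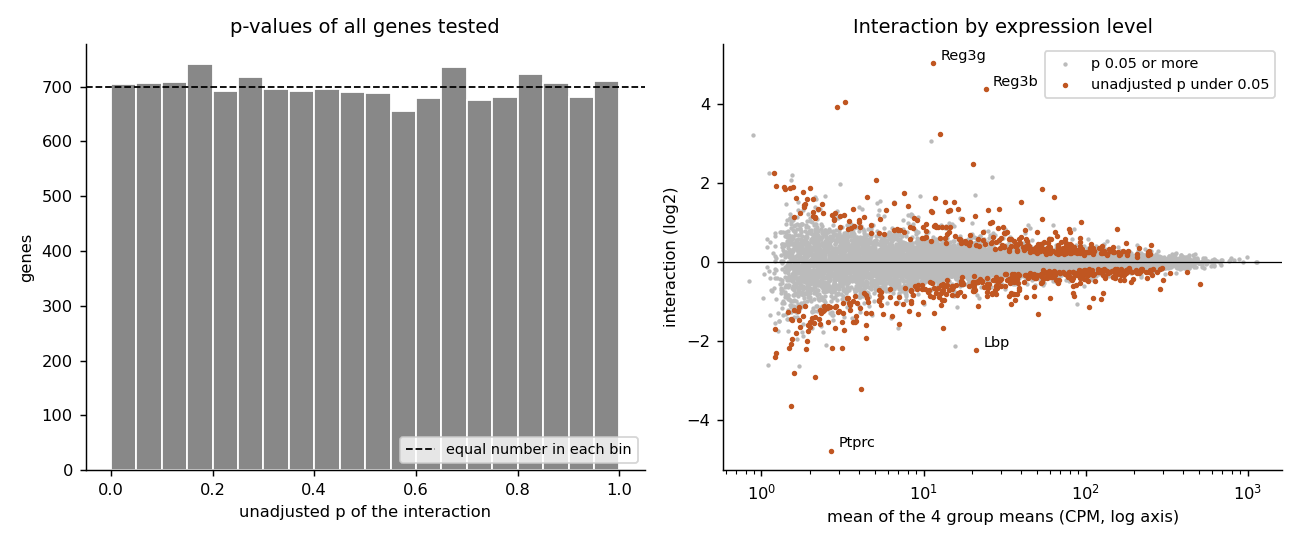
Left, number of genes in each of 20 bins of the unadjusted p of the interaction (edgeR quasi-likelihood test), with a dashed line at an equal number per bin; right, interaction (log2) of each of the 13987 genes against its mean level (CPM, log axis), with the 705 genes at a p under 0.05 in orange. The bins are close to level with no excess near 0, and the estimates spread widely only at low CPM.

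The intervals bound the departure of each gene taken alone and are not adjusted for the number of genes. The median interaction over all genes was -0.00459 log2, with quartiles of -0.12 and 0.105. For 11180 genes (79.9%) the whole 95% interval lay within a 2-fold departure, and for 8556 (61.2%) it lay within 1.5-fold. Precision followed the level: above 100 CPM the median distance from the estimate to either end of the interval was 0.197 log2, and 99.7% of 3513 genes were bounded within 2-fold. Between 20 and 100 CPM 97% of genes were bounded within 2-fold, between 5 and 20 CPM 67%, and between 1 and 5 CPM 11%. These bounds are for the counts as deposited, and fold changes of abundant genes may be compressed in them. A point estimate beyond 2-fold was found for 122 genes above 0 and 165 below, most of them between 1 and 5 CPM (73 and 139). Between 1 and 5 CPM a departure of 2-fold was therefore seldom bounded at this depth. A call needs more than an interval off 0, because the test is adjusted over all genes, and this holds at higher levels too. Adh6a, with group means from 37.3 to 76.3 CPM, was not called at an interaction of -1.32. Intervals were computed from the F statistic and are approximate, above all where counts are few.

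Few genes were called for IL-1b by edgeR, although DESeq2 called 38 for IL-1b alone and 79 for IL-1b beside IL-22. IL-1b alone called 10 genes (0.0715% of those tested), all higher than unstimulated, and IL-1b added to IL-22 called 11 (0.0786%), 9 higher (0.0643%) and 2 lower (0.0143%). These comparisons share no libraries, and 4 genes were called in both: the nitric oxide synthase gene Nos2, the complement gene C3, the siderophore-binding lipocalin gene Lcn2 and the chemokine gene Ccl20. The count of 10 became 28 without unstimulated replicate 3. The count of 11 was 72 without IL-22 replicate 1, 28 without replicate 1 of both cytokines and 18 without unstimulated replicate 3. It was 3 to 6 when any of 5 other libraries was left out: IL-22 replicates 2 and 3, IL-1b replicate 2, and replicates 2 and 3 of both cytokines.

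Of the 10 genes that rose with IL-1b alone, 8 also rose with IL-22 alone. In 6 of the 8 (Lbp, Nos2, Duoxa2, Duox2, Clca4b and Tnf) the 95% interval of the interaction lay below 0, while the combined CPM lay within 2 standard errors of the sum of the 2 single increases. In the other two, C3 and Lcn2, the interval held 0 and the combined CPM was above the sum by more than 2 standard errors. This is a description with no test, because the single-cytokine groups that chose the 8 genes enter the interaction with a minus sign, so that the choice itself pushes the estimates below 0. Fold changes of abundant genes among them, such as Clca4b, may also be compressed. Genes chosen on the average effect of each cytokine over both settings of the other do not have that push in a balanced design with equal spread. The spread was not equal in all genes: for Lbp the standard error of the IL-1b effect was 0.289 alone and 0.142 beside IL-22. A push may thus remain in this choice, and its size was not tested. There were 31 genes higher on both averages, of which 6 had an interval below 0, none an interval above 0, and 25 an interval that held 0; their median interaction was -0.0926, against -0.00459 for all genes. On the CPM scale 19 of the 31 lay within 2 standard errors of the sum, 12 above it and none below it. In genes that rise with both cytokines the product of folds exceeds the sum. An interaction near 0 then places the combined CPM above the sum by arithmetic, so this split is no independent evidence. For 13 of the 31 both scales held, that is, the interval held 0 and the combined CPM lay within 2 standard errors of the sum. The 6 with an interval below 0 were the same 6 genes, and all 23 genes that were not called alone with both cytokines had an interval that held 0, with a median of -0.0492. Some of these intervals bound little, such as -4.44 to 8.38 for S100a9 and -2.08 to 1.52 for Ccr4. Others were narrow, such as -0.18 to 0.20 for Tmem176b.

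Lbp, whose product delivers bacterial lipopolysaccharide to its receptor complex (mm10 chromosome 2, 158306493 to 158332852, plus strand), had the smallest p of all genes. Its level was 1.43, 1.09 and 0.948 CPM in the unstimulated libraries, 5.15, 9.97 and 6.65 with IL-1b, 32.8, 34.8 and 32.1 with IL-22, and 45.8, 43.5 and 40.3 with both. The 4 groups did not overlap. IL-1b raised it by 2.62 ± 0.29 log2 (SE, n = 3 per group; edgeR adjusted p = 0.00143) when given alone, and gave 0.38 ± 0.14 (adjusted p = 0.381) on top of IL-22. The interaction was -2.23 ± 0.33 (95% interval -2.94 to -1.53; unadjusted p from edgeR over all genes 8.89e-06, adjusted p 0.124). The combined mean of 43.2 CPM stood 3.89 ± 2.28 CPM (SE) from the sum of amounts, 39.3 CPM, and far under the product of folds, 209 CPM. Over the alternatives the estimate lay between -2.43 and -1.96 and its adjusted p between 8.43e-05 and 0.876. It passed 0.05 with DESeq2, without the filter and without IL-1b replicate 1.

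Duoxa2 and Duox2 encode the maturation factor and the oxidase that together make hydrogen peroxide at the epithelial surface, and they lie head to head on chromosome 2. Duoxa2 (122298900 to 122302885, plus strand) was measured at 26.7, 19.6 and 29.4 CPM unstimulated, 106, 120 and 88.1 with IL-22, 49.4, 66.0 and 63.7 with IL-1b, and 138, 142 and 155 with both. The groups did not overlap, and the combined mean of 145 CPM was 5.72 ± 12.3 CPM from the sum of 139. Its interaction was -0.77 (-1.20 to -0.34; edgeR adjusted p 0.924). Part of its exons is shared with Duoxa1, and because the strand used in counting is not given, its counts are uncertain. Duox2 (122279247 to 122298449, minus strand) went from a mean of 103 ± 22.4 CPM (SD) to 364 ± 37.6 with IL-22 and to 203 ± 16.2 with IL-1b, and reached 525 ± 62.7 in the combined group, an interaction of -0.45 (-0.83 to -0.06).

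Nos2, which makes nitric oxide (chromosome 11, 78920787 to 78960254), read 41.9, 22.2 and 25.8 CPM unstimulated, 83.2, 107 and 146 with IL-22, 108, 121 and 131 with IL-1b, and 208, 250 and 247 with both. The combined libraries were all above every other library, while the single-cytokine groups overlapped. The product of folds would be 447 CPM, the sum 202, and the measured mean was 235 ± 23.4 (SD, n = 3), an interaction of -0.93 (-1.53 to -0.33; edgeR adjusted p 0.924). The calcium-activated chloride channel regulator gene Clca4b had an interaction of -0.69 (-1.03 to -0.35): IL-22 took it from 85.7 to 444 CPM, IL-1b to 147, and both to 472, so that the 3 IL-22 libraries (405 to 475) overlapped the 3 with both (440 to 490). Clca4b has 2997 exon bases and had 2144 to 2194 counts in the IL-22 libraries and 2245 to 2427 with both. Where counts per exon base level off, its fold changes may be compressed. Over the alternatives its estimate lay between -0.81 and -0.52. The inflammatory cytokine gene Tnf had means of 13 CPM unstimulated, 26.7 with IL-22, 24.5 with IL-1b and 33.9 in the combined group, with an interaction of -0.56 (-0.99 to -0.14). Its 3 combined libraries, at 31.2 to 38.6 CPM, were above all 9 others.

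C3, the central complement component (chromosome 17, 57203970 to 57228136, minus strand), stood between the sum and the product. It was read at 42.8, 26.6 and 26 CPM unstimulated, 68.5, 92.1 and 76.6 with IL-22, 67.3, 111 and 106 with IL-1b, and 193, 189 and 182 with both. All 3 combined libraries exceeded all 9 others. The combined mean of 188 CPM lay 46.2 ± 16.7 CPM above the sum, 142 CPM, and under the product, 236 CPM, and the interaction of -0.32 had an interval from -0.89 to 0.25. Lcn2 (chromosome 2, 32384633 to 32388252) had few counts without both cytokines: 0, 0 and 0.379 CPM unstimulated, 1.45, 0.886 and 0.943 with IL-22, 2.94, 4.14 and 5.49 with IL-1b, and 47.2, 31.4 and 44.6 with both. The summed counts were 2, 16, 71 and 602. The combined mean of 41.1 CPM was 35.9 ± 4.97 CPM above the sum and near the product of 36.2 CPM, which rests on 2 unstimulated counts. The ratio of the 2 IL-1b fold changes, with IL-22 over without, was 1.08, but the 2 unstimulated counts left its exact 95% counting interval at 0.118 to 4.75. Both counts were in unstimulated replicate 3, so that without it no fold change can be given.

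**Figure D2:**
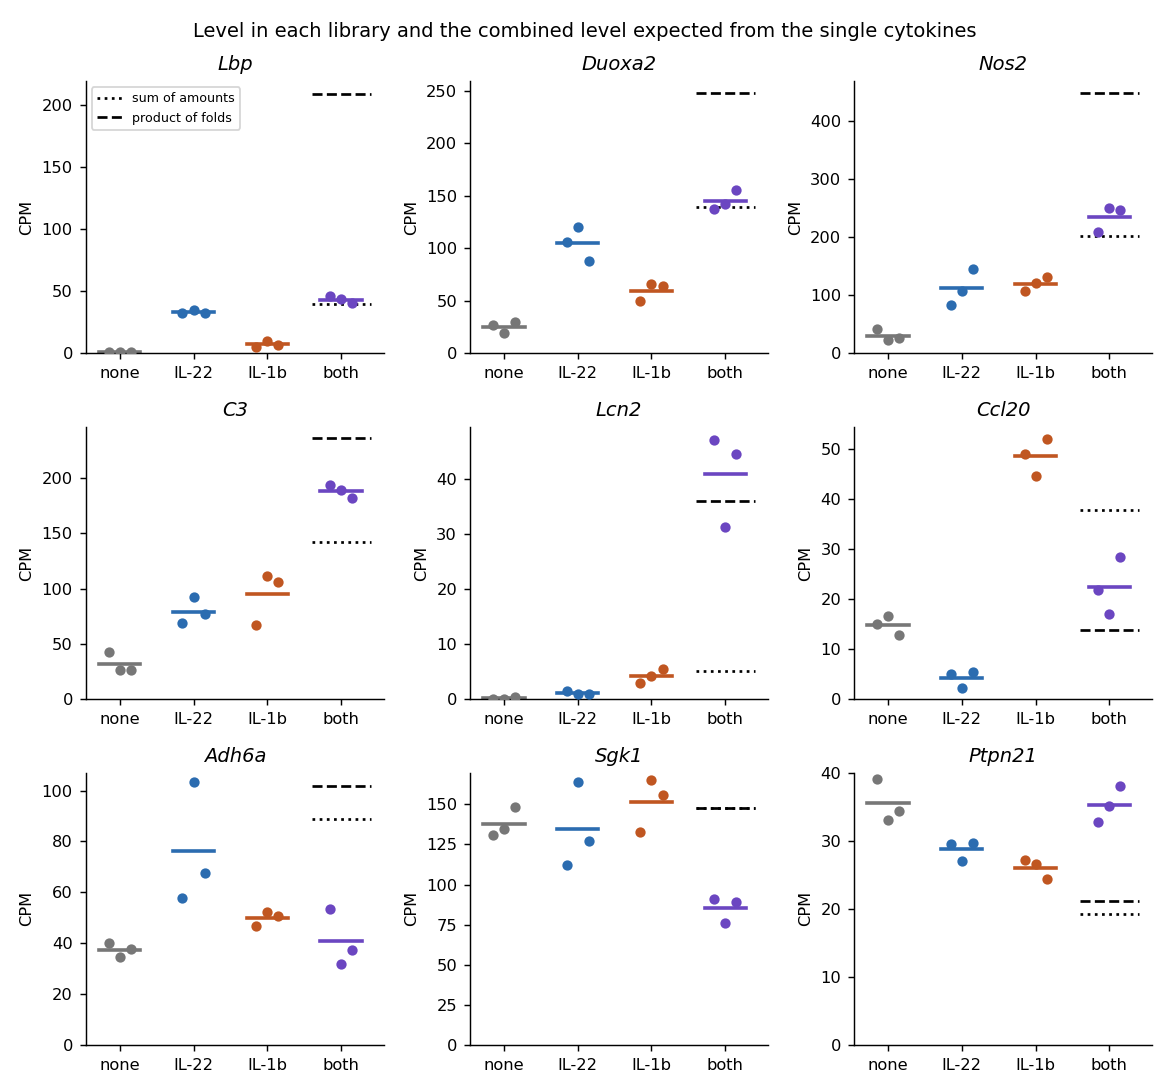
CPM of 9 genes in each library (points) by group, with the group mean as a coloured line; over the combined group the dotted line is the sum of the single increases and the dashed line the product of the single fold changes. The combined libraries of Lbp, Duoxa2 and Nos2 lie at or just above the sum, those of C3 between sum and product, and those of Lcn2 around the product.

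Of the 10 genes that rose with IL-1b alone, Ccl20 was the gene that fell with IL-22. Its product attracts CCR6-bearing lymphocytes and dendritic cells (chromosome 1, 83116766 to 83119167, plus strand). Its level was 15, 16.6 and 12.9 CPM unstimulated, 4.96, 2.22 and 5.47 with IL-22, 48.9, 44.6 and 51.9 with IL-1b, and 21.8, 17.1 and 28.3 with both. The 4 groups did not overlap, and the combination lay between IL-1b and unstimulated. IL-1b raised it by 1.71 ± 0.19 log2 alone (edgeR adjusted p = 0.00143) and by 2.38 ± 0.25 in the presence of IL-22 (adjusted p = 0.00118), while the effect of IL-22 was -1.79 alone and -1.12 beside IL-1b. The interaction was 0.67 (-0.03 to 1.36; unadjusted p over all genes from edgeR 0.0585), and the combined mean of 22.4 CPM was above the product of 13.8 and 15.5 ± 4.16 CPM below the sum of 37.9. For Cd177, which encodes a surface glycoprotein best known from neutrophils, IL-1b alone gave 123, 195 and 175 CPM against 77.5, 63.3 and 70.4 unstimulated, and both cytokines gave 112, 110 and 117 against 69.2, 81.3 and 54.1 with IL-22. The combined libraries were thus below every IL-1b library and above every IL-22 library, with an interaction of -0.49 (-0.96 to -0.01).

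A gene called for IL-1b in 1 setting and not in the other is not thereby shown to differ between them, and the interaction is the test of that difference. The 6 genes called only for IL-1b alone (Lbp, Duoxa2, Duox2, Clca4b, Tnf and Cd177) all had intervals below 0, and 6 of the 7 called only beside IL-22 had intervals that held 0, but no adjusted p passed. The comparison that called a gene is also part of its interaction, so these signs are no independent evidence. The 7 were the chloride channel regulator genes Clca3b and Clca3a1, the matrilysin gene Mmp7, the prolactin family gene Prl2a1, S100a9, and the 2 that were lower, Cyp2d13 and the pseudogene 9130208D14Rik. Clca3b read 147.5, 131.1 and 126.7 CPM unstimulated, 214.5, 130 and 105.2 with IL-22, 213.4, 241.2 and 200.1 with IL-1b, and 307.7, 309.1 and 359.8 with both. All 3 combined libraries were above the 9 others, and the IL-22 group spread over those of the unstimulated and IL-1b groups. Its interaction of 0.43 (-0.11 to 0.97) was on the side above the product, opposite to its paralog Clca4b, and reads of such paralogs may be split between them. Mmp7, which activates alpha-defensins in the mouse small intestine, had 11, 26, 43 and 152 summed counts in unstimulated, IL-22, IL-1b and both, with an interaction of 0.64 (-1.11 to 2.40), and shares exon bases with another gene model. Prl2a1 had 40, 93, 87 and 321 (0.70, -0.31 to 1.71). 9130208D14Rik fell with IL-22 from 135.5 to 51.8 CPM, stood at 123.8 with IL-1b, and had 26.8, 25.5 and 26.4 CPM with both, the lowest 3 libraries of the 12, an interaction of -0.85 (-1.27 to -0.44).

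A further 3 genes were higher on the average effect of each cytokine and lay above the sum of amounts, and were picked with their values in view. Wfdc18, a gene of the whey acidic protein family, had means of 3.3, 18.4, 5.25 and 28.6 CPM in unstimulated, IL-22, IL-1b and both, close to the product of 29.4 CPM (interaction -0.04, -0.55 to 0.47). The metalloprotease gene Mmp28 had 14, 25.6, 18 and 34.9 CPM, against a sum of 29.7 and a product of 33.1. Ly6f, a Ly6 family gene, had 0.245, 1.7, 1.43 and 4.69 CPM, against a sum of 2.88. Its unstimulated mean was under the level of 3 counts in a library, so that its product of folds is not usable, and its interaction of -0.99 had an interval of -2.46 to 0.48.

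The RefSeq sequence before the start of 3 of these genes is shown because their combined levels stood in different places: Duoxa2 at the sum of amounts, C3 between sum and product, and Ccl20 with opposed responses. They were chosen after their values were seen, since no gene was called. Each line gives the 250 bases upstream of the RefSeq start (GRCm38.p6), 5′ to 3′ on the strand of the gene, with capitals where a motif searched on both strands was matched. The motifs were TTCNNNGAA (STAT-type), a kB-like motif of GGG and CC with 5 bases between them, and the core of the interferon-stimulated element, GAAA repeated after 2 bases of any kind. Matches of 1 motif may overlap.
Duoxa2, chr2:122298650-122298899, plus strand: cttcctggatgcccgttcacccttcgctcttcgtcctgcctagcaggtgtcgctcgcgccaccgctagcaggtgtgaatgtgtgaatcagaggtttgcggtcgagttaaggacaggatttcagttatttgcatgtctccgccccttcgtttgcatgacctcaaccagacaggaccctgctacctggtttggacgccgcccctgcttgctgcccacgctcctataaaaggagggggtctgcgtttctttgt
C3, chr17:57228137-57228386, minus strand: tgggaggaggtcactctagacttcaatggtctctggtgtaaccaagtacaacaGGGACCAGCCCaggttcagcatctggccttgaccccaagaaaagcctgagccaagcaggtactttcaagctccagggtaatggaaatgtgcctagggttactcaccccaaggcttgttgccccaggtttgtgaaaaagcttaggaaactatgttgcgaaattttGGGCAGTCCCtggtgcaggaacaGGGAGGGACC
Ccl20, chr1:83116516-83116765, plus strand: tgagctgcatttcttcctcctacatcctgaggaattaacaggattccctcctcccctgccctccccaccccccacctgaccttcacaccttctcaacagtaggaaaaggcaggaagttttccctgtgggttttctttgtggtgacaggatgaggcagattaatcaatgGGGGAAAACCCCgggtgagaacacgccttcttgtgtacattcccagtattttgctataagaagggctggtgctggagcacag

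The Ccl20 window held 4 overlapping kB-like matches, 71 to 82 bases before the start, and the C3 window held 5, of which the nearest ended 1 base before the start. No motif was matched in the Duoxa2 window, and neither the STAT-type nor the interferon motif was matched in any of the 3. The kB-like motif is loose: it was found in 45.8% of 32851 RefSeq promoter windows of this length, against 7.02% for the STAT-type motif and 2.98% for the interferon motif. A match is a description of letters and not a binding site.

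Clone-type names, such as 9130208D14Rik above, were passed over in ranking genes by p. Beside Lbp, Duoxa2 and Clca4b, the 10 genes of smallest p below 0 under that rule were Adh6a, Vnn1, Sgk1, Mttp, Trpv6, Strip2 and Zdhhc17. None of them passed the adjusted test, and they are given as values. Adh6a, an alcohol dehydrogenase gene (chromosome 3, 138313286 to 138331134), read 39.9, 34.4 and 37.7 CPM unstimulated, 57.6, 103 and 67.7 with IL-22, 46.9, 52.1 and 50.6 with IL-1b, and 53.3, 31.8 and 37.1 with both. The combined libraries lay below all IL-22 libraries and overlapped the unstimulated ones, an interaction of -1.32 (-1.92 to -0.71; edgeR adjusted p 0.924). Vnn1, which encodes the pantetheinase vanin 1, had 13.3 ± 1.40, 32.9 ± 4.89, 18.7 ± 1.52 and 21.2 ± 6.08 CPM (SD) in unstimulated, IL-22, IL-1b and both, and an interaction of -1.12. Its combined libraries, at 25.6, 14.3 and 23.8 CPM, were also below all IL-22 libraries, but their mean was above that with IL-1b. Sgk1, the serum- and glucocorticoid-regulated kinase that controls epithelial sodium transport (chromosome 10, 21882184 to 21999903), differed in that neither cytokine alone moved it past the test. It read 131, 135 and 148 CPM unstimulated, 112, 164 and 127 with IL-22 and 133, 165 and 156 with IL-1b, but 91.2, 76.2 and 89.0 with both. The 3 combined libraries were the lowest of the 12, 62.3 ± 19.5 CPM under the sum, and the interaction was -0.79 (-1.15 to -0.42). Mttp, the microsomal triglyceride transfer protein gene, read 33.2, 46.1, 36 and 24 CPM in the same order of groups (interaction -1.06), though it shares exon bases with other gene models. Trpv6, an apical calcium channel gene, fell with IL-22 from 160 to 82.6 CPM and stood at 142 with IL-1b and 33.3 with both (interaction -1.13, -1.75 to -0.51). The other two were Strip2 (-0.97) and the palmitoyltransferase gene Zdhhc17 (-0.40).

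In the 10 genes of smallest p above 0, ranked by the same rule, the combined level exceeded the product of the single fold changes. Again none passed the adjusted test. Ptpn21, a protein tyrosine phosphatase gene (chromosome 12, 98676741 to 98737405), read 39.0, 33.1 and 34.3 CPM unstimulated, 29.5, 27.0 and 29.6 with IL-22, 27.2, 26.5 and 24.4 with IL-1b, and 32.7, 35.1 and 38.0 with both. Either cytokine alone gave lower values than both or neither, without overlap, and the interaction was 0.74 (0.44 to 1.04; edgeR adjusted p 0.746). Gusb, the lysosomal beta-glucuronidase gene, had the smaller interaction of 0.38 (0.20 to 0.56), with 75.7 to 78.7 CPM unstimulated, 86.4 to 94.2 with IL-22, 66.3 to 71.9 with IL-1b and 101 to 107 with both. Isyna1, the inositol-3-phosphate synthase gene, had the same order of groups: 60.6 ± 1.87, 86.7 ± 3.62, 54.6 ± 0.936 and 99.8 ± 0.728 CPM (SD), an interaction of 0.35. Me1, the cytosolic malic enzyme gene, gave 0.59, the choline kinase gene Chka 0.76, the cell envelope gene Ppl 0.60, Pqlc2 0.55, Leng8 0.49 and the growth factor gene Vegfb 0.75, and LOC102639958, which has no position here, 1.35. Me1, Chka and Leng8 share exon bases with other gene models.

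**Figure D3:**
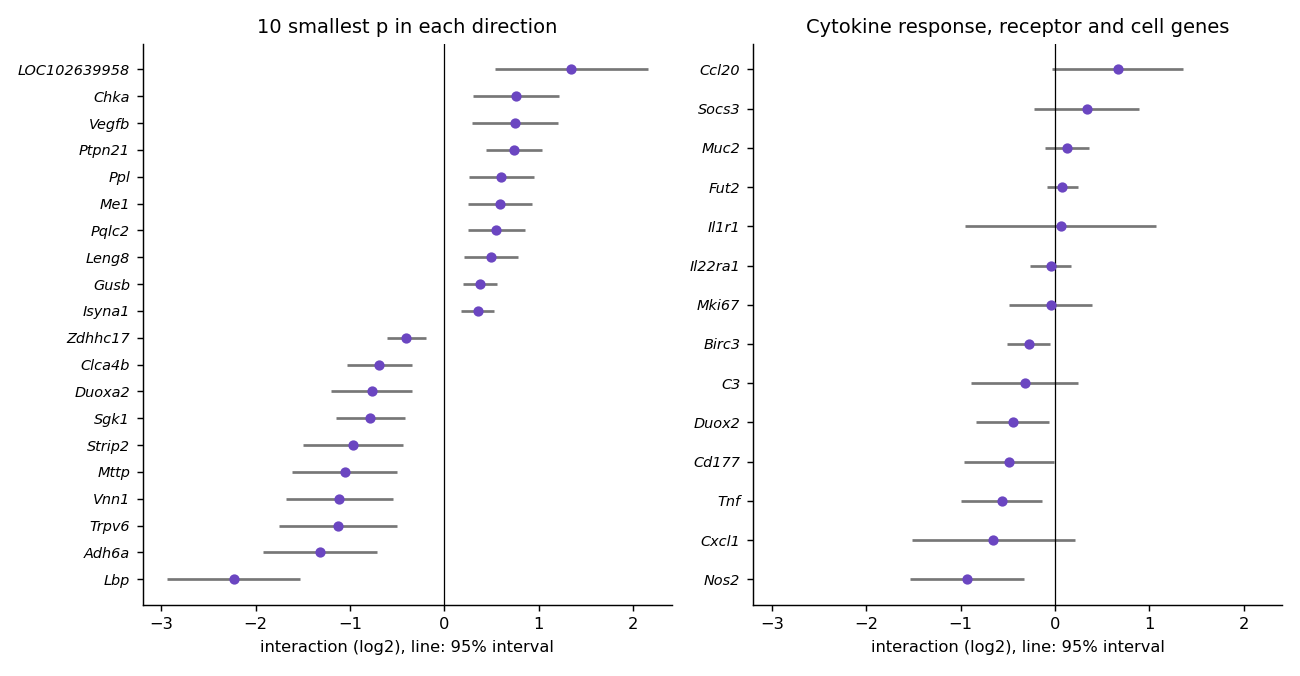
Interaction (log2) with its 95% interval for the 10 genes of smallest p in each direction (left) and 14 cytokine response, receptor and cell genes (right). Clone-type names were passed over on the left. The intervals on the left exclude 0 because the genes were chosen by p, and none passed the adjusted test; on the right, those of Fut2, Il22ra1 and Muc2 are narrow and hold 0.

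Of the abundant genes that rose with IL-22, Clca4b and Duox2 had the intervals below 0 given above, whereas those of Socs3 and Fut2 held 0. Socs3, the feedback inhibitor of STAT3 signalling, read 198, 219 and 211 CPM with IL-22 and 205, 220 and 217 with both, against 19.1, 13.8 and 7.40 unstimulated and 11.4, 10.3 and 11.1 with IL-1b. The pairs of groups overlapped, and the interaction was 0.34 (-0.22 to 0.89), with 1 of the 12 libraries deciding its sign: without unstimulated replicate 1 it was -0.014. Fut2, which fucosylates epithelial glycans, gave 353 ± 11.8 CPM with IL-22 and 364 ± 3.75 with both (SD). Its interaction was 0.08 (-0.08 to 0.24), an unadjusted interval that lies within 1.5-fold. Fold changes of abundant genes may be compressed, so a larger departure in RNA is not excluded. Among 21 tested STAT3 targets and feedback genes none was called, none reached an unadjusted p under 0.05 (5.04% of all genes did), 14 estimates were above 0 and 7 below, and the median was 0.091 (0.0203 to 0.0951 when 1 library was left out). The 14 joint regulators of NF-kB and STAT3 responses, transcription factors and cofactors such as Nfkbiz and Cebpb, also had none called and none at that p, with 11 estimates above 0, a median of 0.0557 (0.0107 to 0.112 when 1 library was left out) and quartiles of 0.0319 and 0.142. The receptor chain genes were likewise near 0: Il22ra1 gave -0.04 (-0.26 to 0.17), whereas the few counts of Il1r1 left 0.06 with an interval of -0.95 to 1.08.

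Several antimicrobial genes had so few counts in some of the groups that no useful bound on the interaction exists. Lrg1, an acute-phase glycoprotein gene, had summed counts of 3, 546, 1 and 1002 in unstimulated, IL-22, IL-1b and both, a ratio of fold changes of 5.61 with an exact 95% counting interval of 0.449 to 295. Ltf, the lactoferrin gene, had 10, 171, 8 and 312 (2.33, 0.808 to 6.91). S100a9, a calprotectin subunit, had 1, 4, 13 and 160 (3.14, 0.0592 to 34.6), and its partner S100a8 had 0, 34, 2 and 69, for which no ratio is given. The S100a9 libraries with both cytokines, at 8.88, 7.45 and 16.7 CPM, were above all 9 others, which reached at most 1.69 CPM. For the C-type lectins Reg3b and Reg3g the estimates above 0, 4.37 and 5.03, rested on unstimulated replicate 1. Reg3b had 109, 1 and 0 counts in the unstimulated libraries and Reg3g 42, 0 and 0. Without that replicate the unstimulated group is at or near 0 counts, so that no fold change over it can be given.

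**Figure D4:**
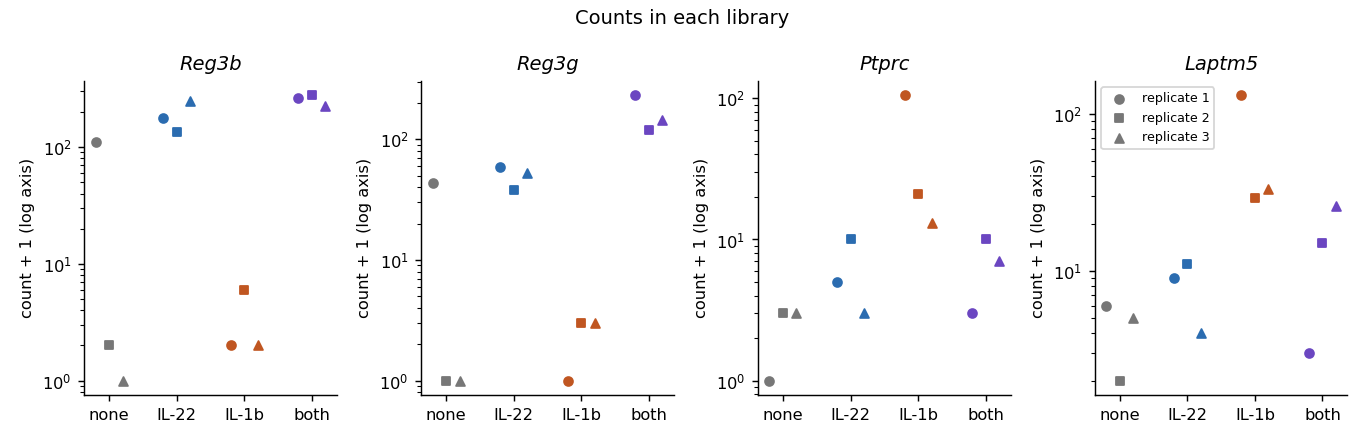
Counts plus 1 (log axis) of Reg3b, Reg3g, Ptprc and Laptm5 in each library, by group, with the symbol giving the replicate number. Unstimulated replicate 1 stands apart from its group in Reg3b and Reg3g, and IL-1b replicate 1 in Ptprc and Laptm5.

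Of the gene lists, the interferon-stimulated genes lay farthest below 0 among those with 10 or more tested genes. None of the 36 tested was called (0% of all genes were), 7 reached an unadjusted p under 0.05 below 0 (2.89% of all genes did) and none above 0 (2.15%). Estimates were below 0 for 30 and above for 6, with a median of -0.453 against -0.00459 for all genes. The members share the 12 libraries, so their signs are not independent. Ifit3b, an interferon-induced antiviral gene, read 6.59, 2.36 and 4.36 CPM unstimulated, 8.47, 8.64 and 5.85 with IL-22, 12.5, 11.5 and 7.15 with IL-1b, and 6.26, 6.86 and 4.72 with both (-1.56, -2.52 to -0.60). The combined libraries lay below all 3 of IL-1b and overlapped the unstimulated ones. Irf9, the DNA-binding subunit of the interferon-activated complex, gave means of 39.8, 53.1, 52.8 and 45.5 CPM in the same order (-0.63, -1.03 to -0.23), and shares exon bases with Rnf31. The immunity-related GTPase gene Igtp had 9.74, 6.05, 17.0 and 4.19 CPM (-1.32, -2.18 to -0.45). By contrast Irf1 (0.03, -0.20 to 0.26) and Irf7 (0.02, -0.45 to 0.49) were near 0. The median of the list over the comparisons was 0.264 for IL-1b alone and -0.0854 for IL-1b beside IL-22. For IL-22 it was -0.0119 alone and -0.627 beside IL-1b. The median interaction of the list stayed below 0 when any library was left out, between -0.601 and -0.252. It was -0.252 without IL-22 replicate 2 and -0.295 without IL-1b replicate 1. The summed level of all 48 members ranged over 1073 to 1318 CPM unstimulated, 1196 to 1334 with IL-22, 1200 to 1504 with IL-1b (the highest in replicate 1) and 1119 to 1330 with both, so the groups overlapped on the sum.

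The enteroendocrine list, hormone genes and their transcription factors, was also mostly below 0: 20 of 22 tested estimates, a median of -0.231, 3 below 0 at an unadjusted p under 0.05 (2.89% of all genes were) and none called. Sst, the somatostatin gene, read 17.6, 19.5 and 21.1 CPM unstimulated, 22.1, 23.3 and 22.1 with IL-22, 21.3, 24.1 and 22.3 with IL-1b, and 15.3, 11.4 and 20.8 with both (-0.73, -1.23 to -0.23). The combined libraries were below every library with a single cytokine. Neurog3, the transcription factor that starts the enteroendocrine lineage, had 8.45, 7.46, 9.40 and 5.31 CPM (-0.65), and Rfx6 3.4, 4.86, 4.74 and 2.42 (-1.50). The 6 members of highest mean level were all below 0 with intervals that held 0: Chgb at -0.06, Chga at -0.09, Pyy at -0.14, Insl5 at -0.20, Gcg at -0.26 and Tac1 at -0.35. The list median was -0.126 without IL-22 replicate 2, -0.151 without IL-22 replicate 1, -0.146 without replicate 2 of both cytokines and -0.383 without IL-22 replicate 3, which includes the lowest and the highest of the 12 values with 1 library left out.

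Several other lists had medians between the quartiles of all genes. All 24 tested tight junction and surface mucin genes were bounded within 2-fold, with a median of 0.0296 (-0.0433 to 0.069 when 1 library was left out). The medians were -0.0226 for 26 goblet cell genes (-0.0862 to 0.0178), -0.0239 for 40 colonocyte and brush border genes (-0.0694 to 0.0354), -0.0135 for 30 unfolded protein response genes (-0.045 to -0.00318) and -0.00126 for 29 NF-kB targets (-0.0569 to 0.02). For 36 proliferation genes the median of -0.059 turned to 0.175 without IL-22 replicate 1 and was -0.218 without IL-22 replicate 3. For 40 genes of xenobiotic and lipid metabolism it was -0.0232, with 19 estimates above 0 and 21 below. The tuft cell list, with 4 tested genes, had -0.189. Single members with an interval off 0 included Axin2, the Wnt feedback gene (17.9, 21.6, 14.8 and 9.96 CPM in unstimulated, IL-22, IL-1b and both; -0.84, -1.44 to -0.23). Plet1, a surface protein gene of epithelial progenitors and wound edges, went the other way (16.4, 21.3, 18.8 and 61.3 CPM; 1.33, 0.32 to 2.35), as did the BCL2-family gene Bcl2l15 (4, 16.8, 3.8 and 40.4 CPM; 1.35, 0.23 to 2.48). For Plet1 the 3 combined libraries, at 53.5 to 69.8 CPM, were above all 9 others, which reached at most 29.0. These 3 genes share exon bases with other gene models. Of 28 antimicrobial and acute-phase genes, 6 had an unadjusted p under 0.05 below 0 (2.89% of all genes did) and 2 above (2.15%), and Lbp, Nos2, Duoxa2, Duox2, Clca4b and Cd177 made up the 6. The median of -0.125 was -0.0804 without IL-1b replicate 2, -0.0529 and -0.0477 without IL-22 replicates 1 and 2, -0.0483 without replicate 2 of both cytokines and -0.178 without IL-22 replicate 3.

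**Figure D5:**
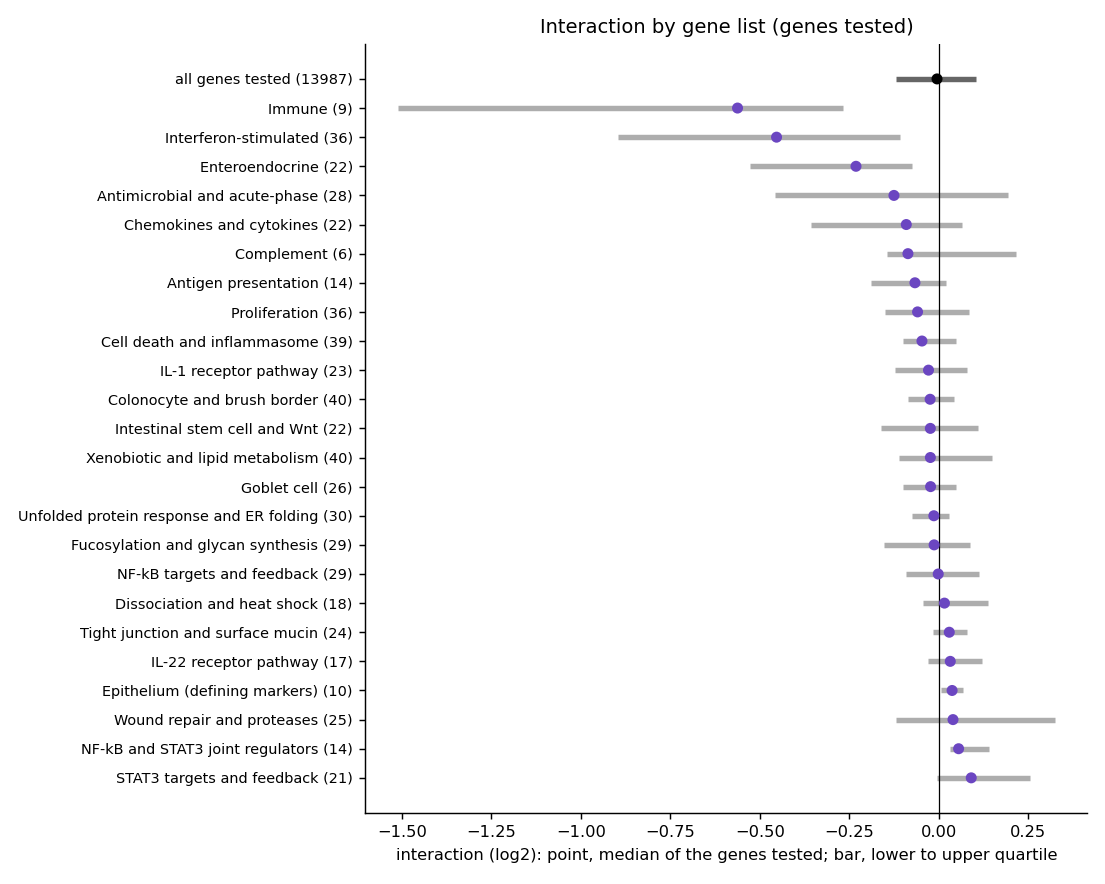
Median (point) and lower to upper quartile (bar) of the interaction (log2) over the tested genes of each list with 5 or more, the number tested in parentheses, and all genes tested at the top. The immune, interferon-stimulated and enteroendocrine lists lie below 0 with quartile bars that do not reach it, the bars of the joint regulators of NF-kB and STAT3 and of the defining epithelial markers lie above 0, and the bars of the other lists hold 0.

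The immune list had a median of -0.562 over 9 tested genes, which was -0.388 without IL-1b replicate 1, -0.202 without IL-22 replicate 2 and -1.03 without IL-22 replicate 3. Its members of smallest p were highest in IL-1b replicate 1. Ptprc, the leukocyte antigen CD45, had 104, 20 and 12 counts in the IL-1b libraries and at most 9 in any other library, and the lysosomal gene Laptm5 had 130, 28 and 32 against at most 25. Their interactions were -4.78 (-8.52 to -1.04) and -3.23 (-6.19 to -0.27), and without IL-1b replicate 1 they were -3.26 and -2.13. Vim, a mesenchymal and leukocyte filament gene, had 31.2, 12.2 and 11.8 CPM in the IL-1b libraries (interaction -1.29, and -0.69 without that replicate). Among other members, the T-cell markers Cd4, Cd3g and Cd3e had 51, 7 and 7, 26, 1 and 7, and 19, 6 and 2 counts in the IL-1b libraries. Coro1a had 76, 14 and 9. These 4 genes were highest of all libraries in IL-1b replicate 1. Itgam (14, 21 and 30) and Plek (30, 47 and 57) were not. The summed immune markers did not set IL-1b replicate 1 apart, with 325.1 CPM against 321.2 CPM in IL-22 replicate 2. Most of that sum was Cd14 (348 to 549 counts in a library) and Ly6g (612 to 771), which were high in all 12. IL-1b replicate 1 enters every interaction with a minus sign, and the part of immune RNA in the values below 0 was not tested.

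Whether the departure depends on the direction of the main response was described over genes called on the average effect of a cytokine. The 50 genes higher with IL-1b had a median interaction of -0.0532 and the 33 lower with IL-1b one of -0.204. The latter was -0.00913 over the 5 genes left without IL-1b replicate 1, -0.0327 over 37 without unstimulated replicate 3 and -0.378 over 71 without IL-22 replicate 1. A median below 0 differs in meaning between these classes. In the genes higher with IL-1b its median effect was 0.966 log2 alone and 0.641 beside IL-22, a smaller rise. In the genes lower with IL-1b it was -0.354 alone and -0.614 beside IL-22, a deeper fall. The 2790 genes higher with IL-22 had a median of 0.00942 and the 2781 lower a median of -0.0445. The classes were defined after the data were seen and the medians carry no test.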

How the data were processed

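For 12 colonoid libraries of polyadenylated RNA, the authors deposited raw counts by gene symbol, without normalization. Their genome build was mm10, per the submitters' processing notes. For the aligner, the counter, the annotation and the strand used in counting, the answer is not given in the sources used here. The kit marks strand, per the labels' protocols. Counts per exon base level off in abundant genes, so that their fold changes may be compressed.

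Of 35869 symbols, 11498 had no count and 13987 passed filterByExpr of edgeR 4.0.16 (R 4.3.3). Scaling was by TMM, with factors of 0.957 to 1.04. A model of 4 group means was fitted by edgeR's quasi-likelihood method (8 residual degrees of freedom). The interaction and the 4 single-cytokine contrasts were tested over all 13987 genes, and the threshold was a Benjamini-Hochberg adjusted p of 0.05. The standard error is the absolute log2 value over the square root of F. On the CPM scale the departure from the sum and its standard error came from the group means and variances, with no test. Exact conditional intervals (95%) for few counts cover counting error only.

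The members and lists were chosen with earlier results of these data known. The rule named up to 15 called genes per direction, filled to 10 by smallest p, up to 4 called members (or the 2 of smallest p) of each of 27 lists, and 40 fixed genes. The choice per direction passed over clone-type names (such as Gm, Rik, Mir and Snor names) and genes under 1 CPM in every group. Other genes, among them Igtp, Irf1, Irf7, Neurog3, Chga, Chgb, Pyy, Insl5, Gcg and Tac1, were picked with their values in view. GENCODE M21 gave positions: 26762 symbols matched directly, 547 by synonym, and 8560 had none. It placed 101 of the 102 named genes, of which 25 overlap exons of other gene models. Same-numbered libraries were not treated as pairs. Alternatives were DESeq2 1.42.0, limma 3.58.1 (voom), other scalings and filters, 3 treatments of levelling counts, a replicate block and leaving out each library. The test was tried on counts simulated from the fitted model, which holds no levelling of counts, and no result here rests on that trial.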

Additional observations from a re-analysis of the deposited data

How the results depend on the processing

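The count of 0 genes called in the interaction was also 0 with DESeq2 size factors, total-count scaling, a filter at 1 CPM in 6 libraries, limma-voom, each of the 3 treatments of levelling counts, and a replicate block (lowest adjusted p 0.277). It was 1 with the DESeq2 Wald test (1 below 0) and 50 without the filter (25 above and 25 below), and 0 to 1 (0 above, 0 to 1 below) when 1 library was left out. IL-1b alone called 38 genes with DESeq2, 212 without the filter and 9 to 28 when 1 library was left out. IL-1b beside IL-22 called 79 with DESeq2, 336 without the filter, 7 with the replicate block and 3 to 72 when 1 library was left out. IL-22 alone called 1992 to 3350 when 1 library was left out, and IL-22 beside IL-1b 2567 to 3843. The causes of these shifts were not tested.

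Same-numbered libraries of different groups had correlations of -0.188 to 0.179 (median -0.0377), and 2 of 12 correlated best with their own number, so the numbers were not taken as pairs.

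Of 2204 recomputed interaction values of 102 named genes, 2139 kept their direction and side of the threshold, 22 passed it, and 43, in 15 genes, changed sign. With limma-voom S100a8 was 0.17, Retnlb 0.11 and Saa3 -0.18. Pigr was -0.053 with counts corrected for positions counted once, and Lgr5 was 0.012 after the count density trend was taken out. Leaving out 1 library gave -2.27 to 0.86 for Lcn2, -1.47 to 5.52 for Reg3b, -1.70 to 5.61 for Reg3g, -0.64 to 0.50 for Retnlb, -0.19 to 0.64 for Saa3, -0.32 to 0.48 for Cxcl5, -0.12 to 0.033 for Il1rn and -0.20 to 0.0060 for Zc3h12a. The ranges were -0.014 to 0.62 for Socs3, -0.037 to 0.053 for Pigr, -0.21 to 0.63 for Il1r1, -1.24 to 0.33 for Lgr5, -0.20 to 0.18 for Mki67 and -0.27 to 0.99 for Pecam1. The lowest values of Lcn2, Reg3b and Reg3g were fitted against unstimulated groups of 0 or 1 count and are no estimates of a fold. Of 754 recomputed departures in CPM none moved by more than its standard error. Leaving out 1 of 3 libraries cannot move a departure further than that, by the way the standard error is computed, so this is no check. The departure in CPM changed sign in 9 of 58 genes. Depth limits genes under 5 CPM most.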
